A study of Chenopodium quinoa with 15 samples.

Results

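Calcium sensors and the protein kinases that act with them were followed across leaf, root, stamen and pistil of quinoa variety NL-6, and in leaves of NaCl-treated seedlings. A gene was included when the title of its best protein match contained the words calmodulin-like, calcium-binding protein CML, calcineurin B-like, CBL-interacting, calcium-dependent protein kinase or calmodulin-7, in any case. Of 58522 genes in the deposited table, 53 met this rule, and 0 of them through calmodulin-7. They comprised 29 sensors, namely 24 calmodulin-like proteins (CMLs) and 5 calcineurin B-like proteins (CBLs), and 24 kinases, namely 11 CBL-interacting protein kinases (CIPKs) and 13 calcium-dependent protein kinases (CDPKs). The treated group was leaves of 14-day-old seedlings that had received NaCl (400 mM) for 8 h, and its control was leaves of seedlings of the same age that the labels call untreated and their treatment protocol calls water-treated. The labels' growth protocol names dark-grown seedlings on medium for the NaCl treatment, while their treatment protocol and the study's methods do not, so a difference in growth between the 2 leaf groups cannot be told apart from the treatment if that wording holds. The floral organs were taken when flowers had just opened, from plants about 7 weeks on soil. Roots came from dark-grown seedlings on agar medium, which were 3 days old by the study's methods and 2 days old by the sample labels. All plants were NL-6, each group had 3 replicates, and a replicate pooled the leaves of 4 seedlings, 8 roots, more than 80 stamens or 30 pistils. Tissue, age and growth condition therefore cannot be told apart between the 4 tissues, and fewer cells of a type cannot be told apart from less RNA per cell.

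A plant cell answers salt, touch, pathogens and pollen tube growth with brief rises of calcium in the cytosol, and sensor proteins with EF-hand motifs bind that calcium. CMLs and CBLs have no enzyme activity of their own: CMLs bind and alter target proteins, and CBLs recruit CIPKs to membranes, whereas a CDPK carries the sensor and the kinase in 1 protein. In Arabidopsis, CBL4 (SOS3) and CIPK24 (SOS2) activate the plasma membrane sodium/hydrogen exchanger SOS1, CBL1 and CIPK23 activate the potassium channel AKT1, and CDPKs regulate ion channels in the pollen tube.

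Counted reads per library ranged from 12499775 to 17019602. Summed marker genes followed the labels: 55 leaf markers (chlorophyll a-b binding, photosystem and small Rubisco subunit titles) reached 69312 to 77718 CPM (read counts scaled to a common library size) in leaf and at most 1129 CPM in the other untreated tissues. In the same libraries, 21 stamen markers (titles naming pollen, anther or tapetum) reached 29736 to 31383 CPM in stamen, 902 to 1226 CPM in pistil and 870 to 1187 CPM in root. The 27 root markers reached 2138 to 2585 CPM in root and at most 24.8 CPM in the other untreated tissues, and the 11 pistil markers 230 to 256 CPM in pistil and at most 30.9 CPM in the others. CPM here was relative to library sizes scaled by TMM, which multiplied the library size by 0.477 to 0.494 in stamen, by 0.835 to 0.850 in leaf, by 1.36 to 1.42 in root and by 1.73 to 1.78 in pistil. Stamen was thus raised against the other tissues by this scaling, and pistil and root were lowered against leaf, so that some directions depend on it.

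The names of the 53 genes rest on protein matches, 45 of them to sugar beet (Beta vulgaris), and 0 of the identifiers or matched proteins were in the reference gene table of another quinoa assembly. The genes had 32 different matched proteins, and 21 of these proteins were shared by exactly 2 members, which are called copies below. The 2 copies lay on different chromosomes in 18 of the 21 pairs. Reads shared between near-identical copies could have been split or lost in the counting, so a difference between copies carries that uncertainty. Some gene models were short: CBL4 had models of 298 and 280 bp, CIPK1 of 282 bp, and the CML15 title stood on adjacent models of 216 and 255 bp on chromosome 7 that were 4 bp apart. Of the 53 members, 41 had reads in all 3 replicates of NaCl-treated leaf, 40 in those of untreated leaf, 48 in those of root, and 45 each in those of stamen and pistil. Over all 58522 genes, the share with reads was 56.5% for NaCl-treated leaf, 55.3% for untreated leaf, 60.2% for root, 53.4% for stamen and 61.6% for pistil. A CML30 copy (CqNL-6_032853) and a CBL4 copy (CqNL-6_045257) had 0 reads in all 15 libraries, and CML45 (CqNL-6_013447) had 1 read in all, from a NaCl-treated leaf.

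To compare levels between genes, the authors' FPKM values, which correct for gene length, were summed over each class in each library. CMLs had the largest sum in every group, with 4246 to 4640 FPKM in stamen, 815 to 990 in pistil, 872 to 943 in root and 303 to 352 in untreated leaf. CDPKs followed in stamen, with 2740 to 2952 FPKM, against 326 to 419 FPKM in pistil, 164 to 176 FPKM in root and 56.0 to 69.4 FPKM in leaf. CIPKs had their highest sum in root instead, with 188 to 207 FPKM, followed by pistil with 146 to 155 FPKM, stamen with 62.4 to 71.3 FPKM and leaf with 55.7 to 66.3 FPKM. The CIPK ranges of stamen and leaf overlapped. CBLs were the smallest class in the 3 tissues other than stamen, and reached 90.6 to 102 FPKM in stamen, 74.1 to 84.1 in pistil, 65.5 to 71.8 in root and 17.1 to 17.6 in leaf. After NaCl, the sums were 502 to 589 FPKM for CMLs, 23.3 to 34.9 FPKM for CBLs, 110 to 116 FPKM for CIPKs and 76.0 to 96.1 FPKM for CDPKs. Each of these 4 ranges lay above that of untreated leaf. With libraries scaled by their total count, as in FPKM, the median log2 fold change over untreated leaf was 0.29 for all genes tested. For tested CDPKs it was 0.40. With TMM these medians were 0.04 and 0.15. FPKM is relative to the total count of a library and carries no TMM scaling, so the order of tissues can depend on that choice. For tested CIPKs, the median log2 fold change of stamen over pistil was -1.035 with the total library size and 0.82 with TMM. That of stamen over root was -1.97 with the total library size and -0.44 with TMM.

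**Figure D1:**
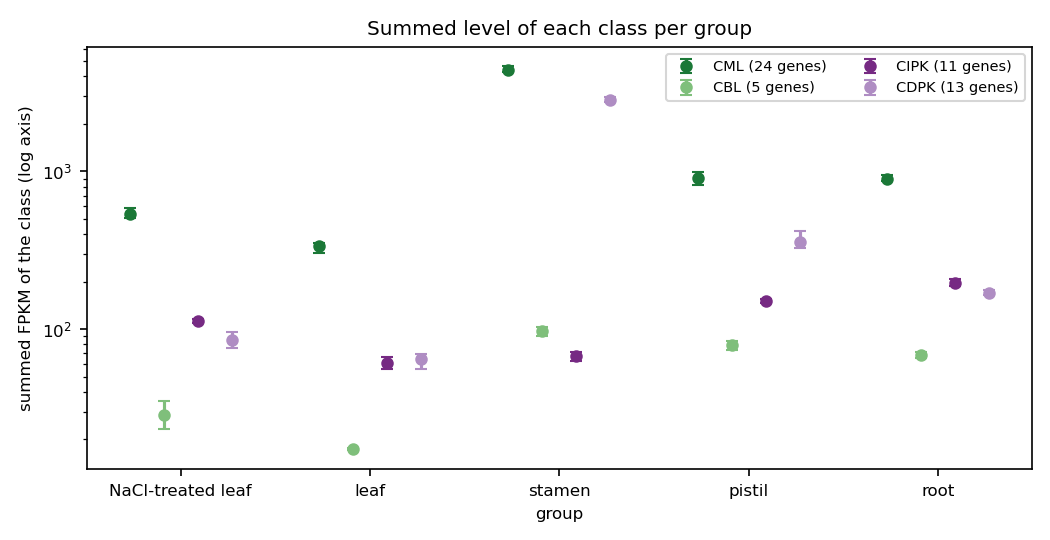
Summed FPKM (log axis) of the 24 CML, 5 CBL, 11 CIPK and 13 CDPK genes in each group. Points are means of 3 libraries and bars run from the lowest to the highest library. The CML and CDPK sums are highest in stamen, at 4246 to 4640 and 2740 to 2952 FPKM, and the CIPK sum is highest in root. FPKM carries no TMM scaling, and the order of tissues for CIPKs can depend on that.

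In stamen, a few genes made up most of these sums. The leading gene of a class by mean FPKM was CaM-like 7 (calmodulin-like protein 7, CqNL-6_037496) among the stamen sensors at 1407 ± 43.8 FPKM (SD, n = 3), and CDPK17 (CqNL-6_015231) among the stamen kinases at 844 ± 40.1 FPKM. In root and pistil the leading sensor was CML35 (CqNL-6_035871) at 123 ± 9.96 FPKM in root and 160 ± 26.9 FPKM in pistil, and in untreated leaf it was CML24 (CqNL-6_011515) at 67.8 ± 2.73 FPKM. CBL1 (CqNL-6_021436) led the CBLs in all 5 groups. CIPK23 (CqNL-6_033529) led the CIPKs in NaCl-treated leaf, root and stamen, and CIPK32 (CqNL-6_042009) in untreated leaf and pistil. The 6 members of at least 1000 CPM in stamen, both copies of CDPK17, CDPK24 and CaM-like 7, made up 73.1% of the members' summed FPKM there, against 27.9% in pistil, 5.42% in root and 1.35% in untreated leaf. These 6 were picked by their stamen level in the same libraries, so a larger share in stamen than elsewhere is partly set in advance.

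The study compared the 4 tissues to find where genes are active. A member counted as highest in 1 tissue if that tissue exceeded each of the other 3 with an adjusted p under 0.05 in edgeR's quasi-likelihood test and a log2 fold change of at least 1. Of the 53 members, 47 had enough reads to be tested (25 sensors and 22 kinases), where the background was 61.4% of all genes. Stamen was the highest tissue for 22 of them (46.8%), where the background was 20.0% of the 35954 genes tested. Root was highest for 3 members (background 10.4%), leaf for 2 (background 11.1%), pistil for 0 (background 6.03%), and 20 members were highest in no tissue (background 52.5%). Of the sensors and kinases, whose difference was not tested, 15 of 25 tested sensors were highest in stamen, 12 of 22 CMLs and 3 of 3 CBLs, whereas this held for 6 of 12 tested CDPKs and 1 of 10 tested CIPKs. The median log2 fold change of stamen over pistil was 3.45 for sensors and 0.82 for kinases, against -0.19 for all genes tested. With the total library size, these medians were 1.60 for sensors, -1.03 for kinases and -2.02 for all genes, so that the kinase median turned direction. On the same scale, 15 members were highest in stamen (11 sensors and 4 kinases), where the background was 9.14%. On that scale 5 were highest in root (background 12.6%), 2 in leaf (background 7.70%) and 2 in pistil (background 16.7%).

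**Figure D2:**
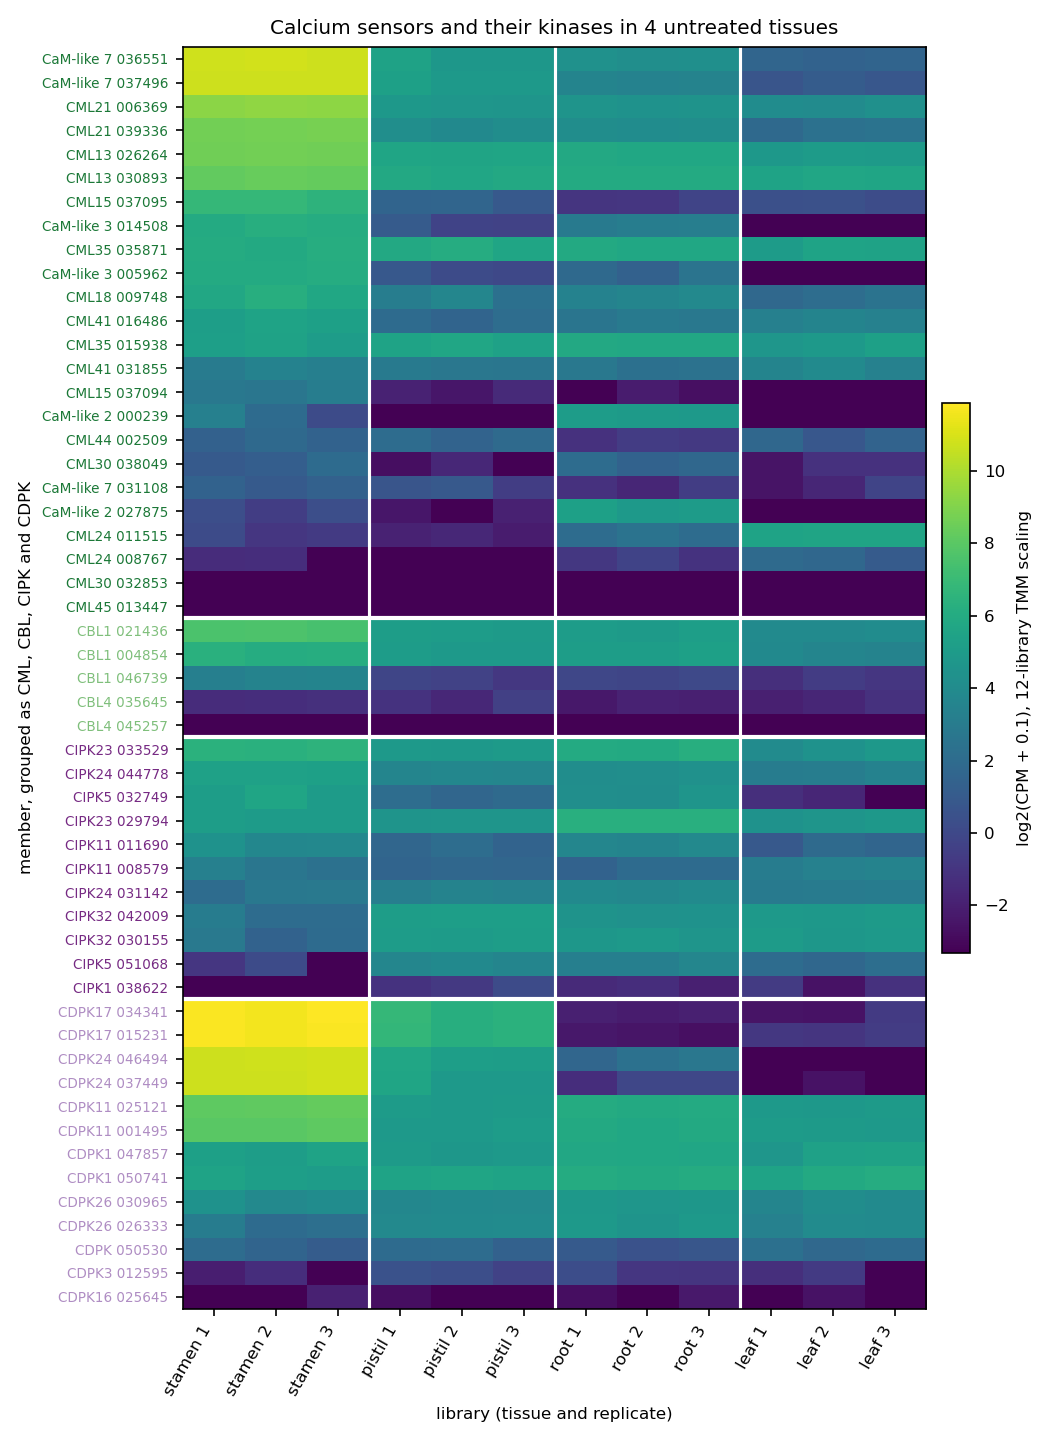
Level of each of the 53 members (rows, named by title and the last digits of the identifier) in the 12 untreated libraries (columns), as log2 of CPM plus 0.1. Rows are grouped as CML, CBL, CIPK and CDPK (label colours) and ordered by the stamen level. The upper rows of the CML and CDPK blocks are brightest in stamen, with both copies of a title alike in most cases.

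Among the sensors, CaM-like 7 was the most abundant in stamen. Its copy on chromosome 6 (CqNL-6_036551, 6271911 to 6272570 of the NL-6 assembly) had 1776, 1849 and 1709 CPM in the stamen libraries, against 42.7, 25.9 and 26.5 CPM in pistil, 20.4, 17.9 and 19.0 CPM in root, with 2.99, 2.65 and 2.89 CPM in leaf. The stamen libraries lay far above all others, and the log2 fold change over the next tissue, pistil, was 5.81 ± 0.20 (SE, edgeR adjusted p = 1.55e-14). The copy on chromosome 15 (CqNL-6_037496, 6879573 to 6880917) had 1694, 1718 and 1672 CPM in stamen, against 39.4, 29.4 and 28.2 CPM in pistil. It behaved alike, at 5.71 ± 0.17 on the log2 scale over pistil. Another gene of this title on chromosome 14 (CqNL-6_031108), with another matched protein, averaged only 2.38 CPM in stamen and was highest in no tissue.

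By CPM, CML21 and CML13 were the next sensors in stamen. CML21 (CqNL-6_006369) had 607, 655 and 621 CPM in stamen, against 27.9, 25.2 and 24.0 CPM in pistil, 23.0, 21.1 and 22.0 CPM in root, with 16.9, 15.9 and 19.6 CPM in leaf. Its other copy (CqNL-6_039336) averaged 424 ± 18.01 CPM in stamen, 16.8 ± 1.85 CPM in pistil, 17.3 ± 0.55 CPM in root and 4.70 ± 1.04 CPM in leaf (SD, n = 3 each). The CML13 copies averaged 393 ± 9.43 and 314 ± 11.7 CPM in stamen and between 30.5 and 63.7 CPM in the other tissues, so that these sensors were also present outside the stamen. One CML13 copy (CqNL-6_030893) was no longer called highest in stamen with the total library size, where its smallest log2 fold change was 0.65.

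Other sensors had lower CPM in stamen, a measure that does not correct for gene length. By FPKM, the CML15 model of 216 bp averaged 234 in stamen, above the CML13 copy CqNL-6_030893 at 199. The CML15 model of 216 bp (CqNL-6_037095) had 110, 113 and 90.8 CPM in stamen, against 2.92, 2.96 and 1.84 CPM in pistil, 0.40, 0.42 and 0.78 CPM in root, with 1.23, 1.26 and 1.06 CPM in leaf. Here stamen exceeded pistil by 5.35 ± 0.18 on the log2 scale (edgeR adjusted p = 1.1e-14). The CaM-like 3 copies (CqNL-6_005962 and CqNL-6_014508) averaged 65.0 and 67.8 CPM in stamen, 1.22 and 1.15 CPM in pistil and 3.87 and 8.28 CPM in root, and had 0 reads in the 3 leaf libraries, which allows up to 0.0722 CPM (3 counts over the group). The CML18 gene (CqNL-6_009748) averaged 61.5 ± 11.4 CPM in stamen, 8.68 ± 3.90 CPM in pistil, 12.4 ± 1.68 CPM in root and 4.42 ± 1.07 CPM in leaf. With the total library size it exceeded root by 0.78 on the log2 scale and was not called. In Arabidopsis, CML18 binds the vacuolar sodium/hydrogen exchanger NHX1.

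The CBLs differed among themselves. CBL1 (CqNL-6_021436) had 193, 201 and 175 CPM in stamen, against 34.8, 34.0 and 31.5 CPM in pistil, 34.2, 31.7 and 37.4 CPM in root, with 15.3, 15.6 and 16.5 CPM in leaf. Stamen exceeded root by 2.46 ± 0.11 on the log2 scale (edgeR adjusted p = 2.41e-13). The other copy (CqNL-6_004854) averaged 73.8 ± 5.88 CPM in stamen and 36.5 ± 2.47 CPM in root, a log2 fold change of 1.02 that turned to -0.52 with the total library size. It fell below 1, to between 0.83 and 0.99, and the call was lost, when leaf replicate 2, root replicate 1 or 2, or any stamen replicate was left out. With the total library size, the first CBL1 copy was no longer called highest in stamen either, its smallest log2 fold change being 0.65 over pistil. Another CBL1 gene (CqNL-6_046739) averaged 10.8 ± 1.11 CPM in stamen and under 1 CPM in every other tissue. The CBL4 gene with reads (CqNL-6_035645) had 6 reads in stamen, 28 in pistil, 9 in root and 10 in leaf, each over 3 libraries, and was not tested.

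The kinases highest in stamen were mostly CDPKs. CDPK17 (CqNL-6_015231, chromosome 12, 64188526 to 64191351) had 3612, 3209 and 3575 CPM in stamen, against 106, 75.0 and 83.3 CPM in pistil, 0.10, 0.08 and 0.05 CPM in root, with 0.46, 0.42 and 0.56 CPM in leaf. In Arabidopsis, CPK17 acts with CPK34 in pollen tube growth. Its copy on chromosome 4 (CqNL-6_034341, 70438790 to 70441699) had 3601, 3185 and 3798 CPM in stamen, against 114, 75.4 and 83.6 CPM in pistil. Stamen exceeded pistil by 5.30 ± 0.18 and 5.28 ± 0.22 on the log2 scale in the 2 copies (edgeR adjusted p = 1.26e-14 and 1.17e-13).

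CDPK24 was almost as restricted. The gene on chromosome 15 (CqNL-6_037449, 6346253 to 6349075) had 1682, 1699 and 1816 CPM in stamen, against 49.6, 29.4 and 29.4 CPM in pistil, and averaged 0.66 ± 0.31 CPM in root, with 1 read over the 3 leaf libraries. Its copy on chromosome 6 (CqNL-6_046494, 6898554 to 6901394) had 1713, 1765 and 1863 CPM in stamen, against 50.4, 36.2 and 35.1 CPM in pistil, and averaged 4.89 ± 1.67 CPM in root. Both CDPK24 genes lay near a CaM-like 7 gene, 0.53 Mb away on chromosome 15 and 0.63 Mb away on chromosome 6. All 4 genes were highest in stamen. Other members less than 1 Mb apart did not all share a call. Each CDPK26 gene lay near a CML13 gene, at 0.69 and 0.77 Mb, and only the CML13 genes were highest in stamen. CIPK1, 0.69 Mb from CaM-like 7 (CqNL-6_037496), had too few reads to be tested in the tissues. CaM-like 7 (CqNL-6_031108) and CIPK24 (CqNL-6_031142) were highest in no tissue, and both CML15 models in stamen. The CDPK11 copies averaged 260 ± 12.8 and 296 ± 16.6 CPM in stamen, 57.9 ± 4.58 and 62.9 ± 1.39 CPM in root, and between 29.8 and 31.4 CPM in pistil and leaf. With the total library size, both exceeded root by less than 1 on the log2 scale (0.63 and 0.70) and were not called. In Arabidopsis, CPK11 and CPK24 act together on a potassium channel of the pollen tube.

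Among the CIPKs, only 1 CIPK24 copy (CqNL-6_044778) was called highest in stamen. It had 40.9, 41.8 and 40.8 CPM in stamen, against 12.01, 12.9 and 12.7 CPM in pistil, 17.7, 18.03 and 20.7 CPM in root, with 8.35, 8.59 and 10.4 CPM in leaf. The log2 fold change over root was 1.13 ± 0.11 (edgeR adjusted p = 4.53e-08). It was 0.99 without stamen replicate 2, which ended the call, and turned to -0.41 with the total library size. In the other copy (CqNL-6_031142), stamen was the lowest of the 4 means, at 5.93 ± 1.57 CPM, against 14.4 ± 1.07 CPM in root.

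Members that were high in stamen had lower but measurable levels in pistil. The 6 members of at least 1000 CPM in stamen had 1.78% to 2.58% of their stamen CPM in pistil. For comparison, the 10 stamen markers that were highest in stamen had a median of 2.52% (range 1.59% to 19.3%). All 357 genes highest in stamen with at least 1000 CPM there had a median of 2.46%. All 22 members highest in stamen had a median of 4.02% (range 1.69% to 41.0%), and all 7186 genes highest in stamen 11.9%. A gene called highest in stamen exceeds pistil by the rule, so a low share in pistil is partly set in advance. Of the 3 pistil libraries, replicate 1 was the highest for each of the 6 members, as with 106 CPM against 75.0 and 83.3 CPM for CDPK17. The part of stamen material in these pistil values was not tested.

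**Figure D3:**
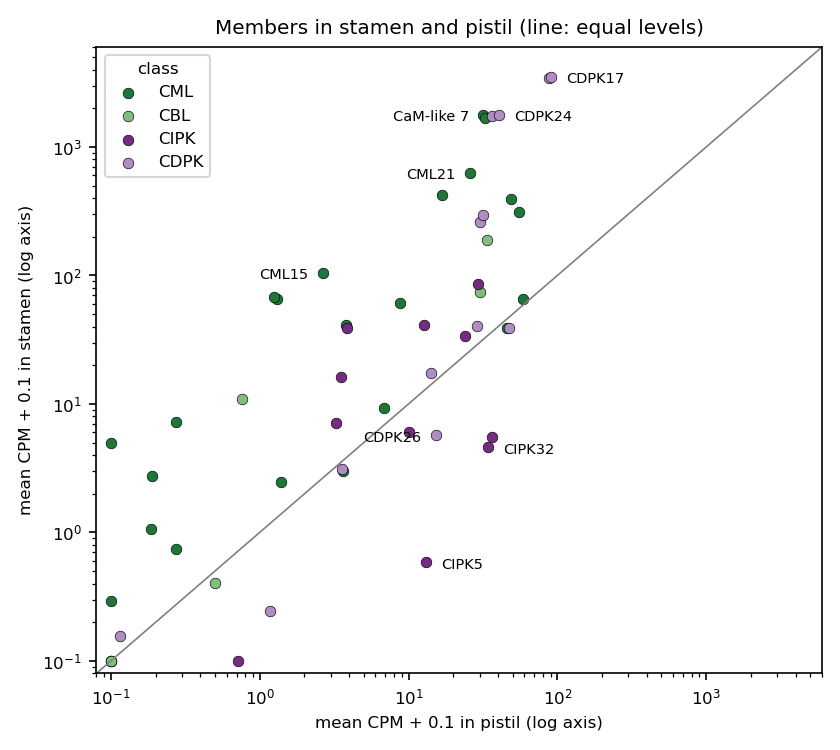
Mean CPM plus 0.1 of each member in stamen (vertical axis) and pistil (horizontal axis), both on log axes, with 1 point per gene coloured by class and a line of equal levels. Both copies of CDPK17 and CDPK24 and the CaM-like 7 copies highest in stamen lie far above the line. Both CIPK32 genes, a CIPK5 gene and a CDPK26 gene lie below it, and the other CIPK5 and CDPK26 genes lie above it.

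Root and leaf had few members of their own. CaM-like 2 was called highest in root in both copies: CqNL-6_027875 had 40.1, 29.6 and 32.6 CPM in root, against 1.14, 0.59 and 1.17 CPM in stamen, and CqNL-6_000239 had 33.6, 31.2 and 29.2 CPM in root, against 9.70, 3.81 and 1.01 CPM in stamen. Root exceeded stamen by 5.14 ± 0.29 and 2.65 ± 0.37 on the log2 scale. Both copies had 0 reads in the 3 leaf libraries. CML24 was called highest in leaf in both copies. In Arabidopsis, CML24 (TCH2) is a touch-induced gene. The more abundant copy (CqNL-6_011515) had 44.8, 47.8 and 48.1 CPM in leaf, against 3.98, 5.503 and 3.98 CPM in root, and averaged 0.65 CPM in stamen and 0.18 CPM in pistil. The other copy (CqNL-6_008767) averaged 3.00 ± 0.91 CPM in leaf and 0.51 ± 0.19 CPM in root.

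CIPK23 was the kinase highest in root. The copy on chromosome 14 (CqNL-6_029794) had 76.4, 76.0 and 77.3 CPM in root, against 35.2, 32.3 and 32.7 CPM in stamen, 23.4, 24.5 and 24.2 CPM in pistil and 21.4, 24.8 and 27.6 CPM in leaf. Root exceeded stamen by 1.20 ± 0.11 on the log2 scale (edgeR adjusted p = 9.22e-09). The copy on chromosome 8 (CqNL-6_033529) averaged 85.7 ± 6.06 CPM in stamen and 66.5 ± 7.07 CPM in root, and was highest in no tissue. With the total library size, its log2 fold change of stamen over root turned to -1.17, against 0.37 with TMM, and that over pistil to -0.30, against 1.56. For the copy on chromosome 14, stamen over pistil turned to -1.38, against 0.475, and stamen over leaf to -0.36, against 0.44.

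Some members were low in stamen, by a mirror rule chosen after the values were seen (a log2 fold change of at most -1 with an adjusted p under 0.05 against each other tissue). Of the tested members, 4 were lowest in stamen (background 20.8%), all of them kinases: both CIPK32 copies, a CIPK5 gene and a CDPK26 gene. This rule was applied with TMM only, which raised stamen against the other tissues. The lowest tissue was not counted with the total library size. CIPK32 (CqNL-6_030155) had 6.99, 2.64 and 3.86 CPM in stamen, against 33.6, 33.1 and 35.9 CPM in pistil, 26.9, 28.7 and 24.6 CPM in root, with 32.0, 26.9 and 29.3 CPM in leaf. The 2 CIPK5 genes had opposite patterns in the flower. CqNL-6_051068 averaged 0.48 ± 0.52 CPM in stamen and 13.1 ± 1.37 CPM in pistil, whereas CqNL-6_032749 averaged 38.9 ± 8.85 CPM in stamen and 3.75 ± 0.59 CPM in pistil. The log2 fold change of stamen over root of the second gene was 0.98. It was 1.14 without root replicate 3, where the gene was called highest in stamen, and turned to -0.55 with the total library size. Leaf was the lowest tissue for 10 members (background 6.47%), among them both CaM-like 7 copies highest in stamen and both CDPK24 genes, root for 3 (background 6.02%) and pistil for 2 (background 2.74%).

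Members highest in no tissue included the broadly expressed ones. The CML35 genes averaged 38.8 and 65.5 CPM in stamen, 46.1 and 58.6 CPM in pistil, 56.1 and 56.5 CPM in root, with 31.7 and 40.5 CPM in leaf. For the more abundant one (CqNL-6_035871), stamen over leaf was 0.69 on the log2 scale and turned to -0.11 with the total library size. The CDPK1 genes ranged from 28.8 to 64.2 CPM over the 4 tissue means. For 1 of them (CqNL-6_047857), stamen exceeded pistil by 0.48 on the log2 scale, which turned to -1.38 with the total library size. In all, 22 differences between tissues that passed the test turned direction with the total library size, and 14 of these were stamen over pistil or root. The 6 members that did not pass the read filter of the tissue test had at most 43 reads in any tissue.

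Copies of 1 matched protein mostly had the same tissue call. Both copies were tested in 19 pairs, and 16 pairs had equal calls: 8 with both copies highest in stamen, 1 in root (CaM-like 2), 1 in leaf (CML24) and 6 in no tissue. The 3 pairs with unequal calls were CIPK23, CIPK24 and CML41. For CML41, 1 copy (CqNL-6_016486) had 37.4, 45.5 and 39.6 CPM in stamen, against 9.88, 11.3 and 10.1 CPM in leaf. The other (CqNL-6_031855) had 7.84, 10.4 and 9.56 CPM in stamen, against 11.5, 15.2 and 10.3 CPM in leaf, where it was not called highest.

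The second comparison of the study asked how leaf genes respond to salt, with NaCl-treated over untreated leaves. Of the 53 members, 35 had enough reads in the leaf libraries to be tested (background 49.9%), and CPM values below are scaled among the 6 leaf libraries. Of these, 14 rose with an adjusted p under 0.05 in edgeR's quasi-likelihood test (40.0%), where the background was 24.0% of 29201 genes. Only 4 fell (11.4%, background 22.8%), and 17 did not pass. The sensors had 8 members that rose and 2 that fell of 18 tested, and the kinases 6 that rose and 2 that fell of 17. By class, 7 of 16 tested CMLs rose and 2 fell, 1 of 2 CBLs rose, 4 of 9 CIPKs rose and 1 fell, and 2 of 8 CDPKs rose and 1 fell. The median log2 fold change was 0.34 for tested sensors and 0.46 for tested kinases, against 0.04 for all genes tested. The NaCl-treated and untreated libraries did not overlap for 20 of the 35 (background 58.6%). At a log2 fold change of at least 1 there were 7 rises (background 10.5%) and 3 falls (background 10.6%). Without untreated leaf replicate 2, 10 members rose (4 of them sensors) and 2 fell, where 18.2% of all genes tested rose and 17.9% fell. Without untreated leaf replicate 3, 11 rose and 2 fell, where 19.1% of all genes rose and 18.6% fell. The 55 leaf markers summed to 46366 to 52761 CPM in NaCl-treated leaves and to 64238 to 70988 CPM in untreated leaves, and their part in these results was not tested. The untreated leaf libraries are shared with the tissue comparison.

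**Figure D4:**
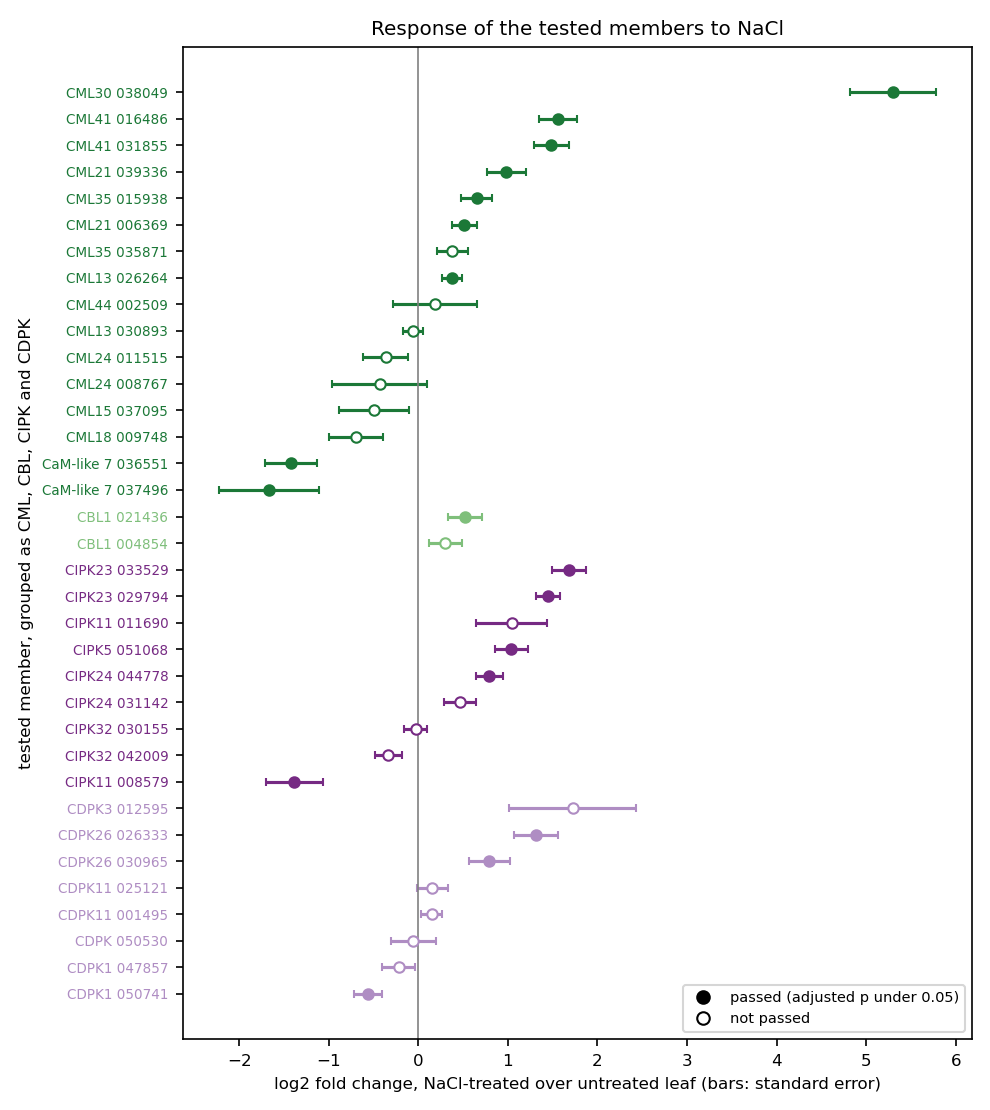
Log2 fold change of the 35 tested members, NaCl-treated over untreated leaf, with bars of 1 standard error, grouped as CML, CBL, CIPK and CDPK (colours). Filled points passed the test (14 rose and 4 fell) and open points did not. CML30 lies apart at 5.30, and the other rises lie below 2.

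CML30 (CqNL-6_038049, chromosome 10, 14436759 to 14437193) had the largest rise of all members. It had 14.3, 9.12 and 6.03 CPM in NaCl-treated leaves, against 0.07, 0.32 and 0.32 CPM in untreated leaves. The groups lay far apart, with 482 reads over the treated libraries and 11 over the untreated ones, and the log2 fold change was 5.30 ± 0.48 (edgeR adjusted p = 7.91e-05). In the untreated tissues this gene averaged 3.33 ± 0.64 CPM in root, 2.64 ± 1.07 CPM in stamen and 0.09 ± 0.12 CPM in pistil. Its other copy was the one with 0 reads.

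CML41 rose in both copies. In Arabidopsis, CML41 acts at plasmodesmata, the channels between cells. CqNL-6_016486 had 38.4, 22.4 and 24.0 CPM in NaCl-treated leaves, against 9.15, 10.4 and 9.20 CPM in untreated leaves, and CqNL-6_031855 had 39.3, 28.9 and 26.8 CPM, against 10.6, 13.9 and 9.45 CPM. Treated replicate 1 was the highest in both, and every treated library exceeded every untreated one. The log2 fold changes were 1.56 ± 0.21 and 1.48 ± 0.20 (edgeR adjusted p = 0.00044 and 0.00038).

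Smaller rises were found for other sensors. CML21 (CqNL-6_039336) had 9.53, 9.06 and 7.01 CPM in NaCl-treated leaves, against 3.26, 4.68 and 5.02 CPM in untreated leaves, a log2 fold change of 0.98 ± 0.22 (edgeR adjusted p = 0.00523). Its other copy (CqNL-6_006369) rose by 0.515 ± 0.14 on the log2 scale, at an adjusted p of 0.0123 that was 0.0632 without untreated leaf replicate 2. The CML35 gene CqNL-6_015938 had 48.3, 49.0 and 39.7 CPM in treated leaves, against 23.6, 27.4 and 36.3 CPM in untreated leaves, with an edgeR adjusted p of 0.0119, and of 0.0577 without untreated leaf replicate 2. CML13 (CqNL-6_026264) rose by 0.375 ± 0.12 on the log2 scale, at an adjusted p of 0.0238 that lay between 0.0589 and 0.0901 when NaCl replicate 1 or any untreated replicate was left out.

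CBL1 (CqNL-6_021436) had 27.5, 17.5 and 17.4 CPM in NaCl-treated leaves, against 14.2, 14.3 and 15.1 CPM in untreated leaves. Treated replicate 1 was well above the other 2, and the groups did not overlap. The log2 fold change was 0.52 ± 0.19 (edgeR adjusted p = 0.0477). Without NaCl replicate 1 it was 0.26, with an adjusted p of 0.172, and without untreated replicate 1, 2 or 3 the adjusted p was 0.124, 0.132 and 0.101. The other CBL1 copy (CqNL-6_004854) averaged 14.2 ± 2.55 CPM in treated and 11.5 ± 1.84 CPM in untreated leaves and did not pass (edgeR adjusted p = 0.204). The CBL4 gene with reads had 19 reads over the treated and 10 over the untreated libraries and was not tested.

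Among the kinases, CIPK23 had the largest rises, in both copies. CqNL-6_033529 had 56.9, 65.3 and 71.4 CPM in NaCl-treated leaves, against 14.9, 20.1 and 25.1 CPM in untreated leaves. CqNL-6_029794 had 57.6, 65.6 and 61.6 CPM in treated leaves, against 19.8, 22.7 and 25.2 CPM in untreated leaves. The lowest treated library of each copy exceeded the highest untreated one more than 2-fold, and the log2 fold changes were 1.68 ± 0.19 and 1.45 ± 0.13 (edgeR adjusted p = 0.000177 and 7.4e-05).

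CIPK24, the SOS2 kinase of Arabidopsis, rose in 1 copy. CqNL-6_044778 had 15.9, 14.0 and 13.6 CPM in NaCl-treated leaves, against 7.73, 7.88 and 9.52 CPM in untreated leaves, a log2 fold change of 0.79 ± 0.15 (edgeR adjusted p = 0.0025). CqNL-6_031142 had 7.85, 11.8 and 10.8 CPM in treated leaves, against 7.17, 7.37 and 7.52 CPM in untreated leaves. Its groups did not overlap either, but it did not pass (log2 fold change 0.46, edgeR adjusted p = 0.0624). CIPK5 (CqNL-6_051068) had 7.91, 7.25 and 7.08 CPM in treated leaves, against 3.76, 3.07 and 3.99 CPM in untreated leaves, and rose by 1.04 ± 0.19 on the log2 scale (edgeR adjusted p = 0.0018). Its other copy had 36 reads over the treated and 7 over the untreated libraries and was not tested.

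CDPK26 rose in both copies, with NaCl replicate 2 the highest in each. CqNL-6_026333 had 23.6, 43.6 and 29.3 CPM in NaCl-treated leaves, against 9.58, 14.99 and 14.2 CPM in untreated leaves (log2 fold change 1.31 ± 0.25, edgeR adjusted p = 0.00221). CqNL-6_030965 had 18.6, 32.4 and 19.7 CPM in treated leaves, against 11.1, 15.8 and 14.0 CPM in untreated leaves (0.79 ± 0.23, edgeR adjusted p = 0.0186). Without untreated replicate 1 or 3, the adjusted p of the second was 0.0781 and 0.0589. No other CDPK rose. CDPK3 (CqNL-6_012595) had a log2 fold change of 1.72 ± 0.71, but only 40 reads over the treated and 11 over the untreated libraries, and did not pass (edgeR adjusted p = 0.0714).

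**Figure D5:**
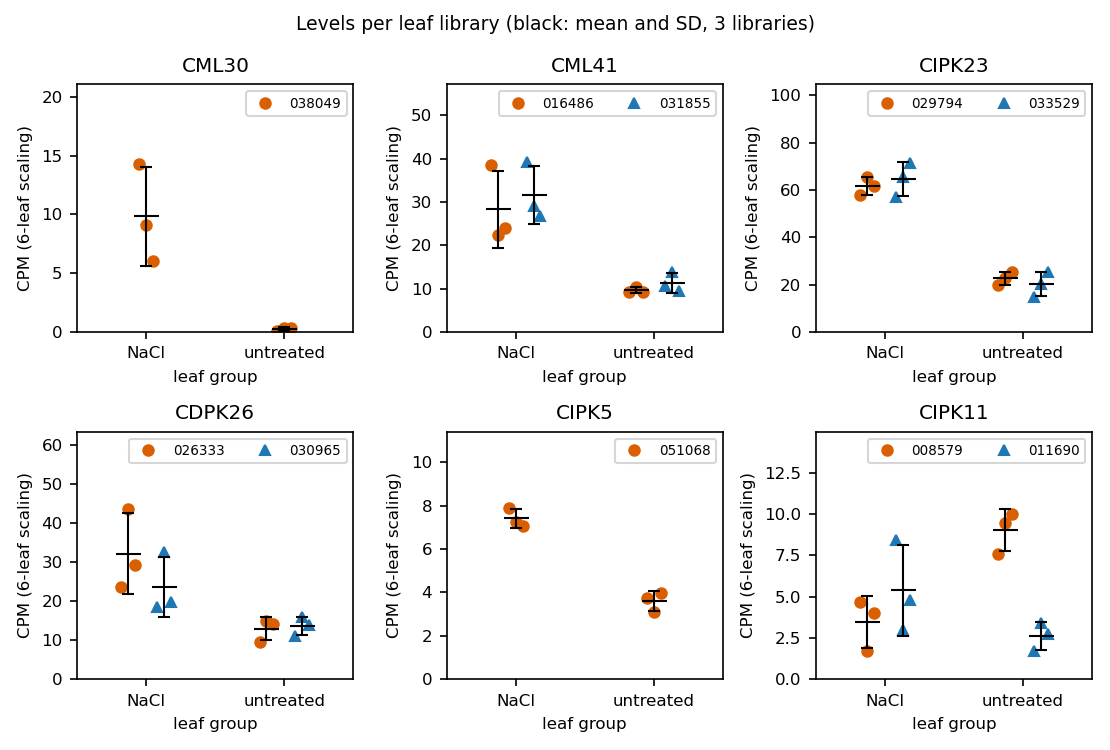
CPM in each leaf library for CML30, CML41, CIPK23, CDPK26, CIPK5 and CIPK11, with NaCl-treated leaves on the left of each panel and untreated leaves on the right. Colours and shapes mark the copies by the last digits of the identifier, and black marks are the mean and SD of 3 libraries. Treated libraries lie above untreated ones for the first 5 titles, whereas the CIPK11 copies differ.

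The members that fell were CaM-like 7 in both copies highest in stamen, a CIPK11 copy and a CDPK1 copy. CaM-like 7 (CqNL-6_036551) had 1.08, 1.03 and 0.79 CPM in NaCl-treated leaves, against 2.77, 2.43 and 2.64 CPM in untreated leaves (log2 fold change -1.43 ± 0.29, edgeR adjusted p = 0.00338). CqNL-6_037496 had 0.18, 1.03 and 0.26 CPM in treated leaves, against 1.42, 1.86 and 1.48 CPM in untreated leaves (-1.67 ± 0.56, edgeR adjusted p = 0.0336). With 24 reads over the treated libraries and 72 over the untreated ones, this second call was lost without NaCl replicate 1 or 3 or any untreated replicate, at adjusted p of 0.0724 to 0.112. The 21 stamen markers summed to 164 to 218 CPM in treated leaves and to 152 to 178 CPM in untreated leaves.

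CDPK1 (CqNL-6_050741) had 36.4, 33.8 and 38.9 CPM in NaCl-treated leaves, against 42.4, 55.1 and 63.5 CPM in untreated leaves. The untreated libraries were spread more widely than the treated ones, and the log2 fold change was -0.56 ± 0.16 (edgeR adjusted p = 0.0154). It did not pass without untreated replicate 2 or 3 (adjusted p = 0.0561 and 0.0667) or with the total library size (-0.31, adjusted p = 0.121).

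The CIPK11 copies differed in direction. In Arabidopsis, CIPK11 (PKS5) inhibits a proton pump of the plasma membrane. CqNL-6_008579 had 4.68, 1.69 and 3.998 CPM in NaCl-treated leaves, against 7.59, 9.48 and 9.97 CPM in untreated leaves (log2 fold change -1.38 ± 0.32, edgeR adjusted p = 0.00631). CqNL-6_011690 had 8.39, 2.96 and 4.78 CPM in treated leaves, against 1.70, 3.39 and 2.70 CPM in untreated leaves, so that its groups overlapped, and it did not pass (1.04 ± 0.39, edgeR adjusted p = 0.0536). It passed with DESeq2's Wald test (adjusted p = 0.0411), and with edgeR when all 15 libraries were fitted (adjusted p = 0.0223), without the read filter (0.0393), with the total library size (0.0226) and without NaCl replicate 2 (0.00916). The log2 ratio of the first to the second copy was -0.62 ± 0.32 in treated leaves and 1.80 ± 0.32 in untreated leaves (SD, n = 3 each), a difference of -2.42. With 3 libraries in each group, the two-sided exact permutation p of 0.10 for this difference is the smallest the design allows, and it was reached by 5 of the 14 pairs tested.

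Across the pairs, both copies were tested for salt in 14. Both rose in 4 pairs (CML41, CML21, CIPK23 and CDPK26), both fell in 1 (CaM-like 7), and neither passed in 3. In the 6 other pairs only 1 copy passed, and the copy that did not pass had the same sign in 4 and the opposite sign in 2, CIPK11 and CML13. No pair had calls in opposite directions in this fit, and CIPK11 had them in 5 of 13 alternatives. Without NaCl replicate 3, both CML24 copies fell, and without untreated leaf replicate 1, both CDPK1 copies.

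Of the members that did not pass, some stayed close to the untreated level. CIPK32 (CqNL-6_030155) averaged 26.4 ± 2.81 CPM in treated and 27.0 ± 2.51 CPM in untreated leaves, and CML13 (CqNL-6_030893) 43.0 ± 0.47 CPM in treated and 44.8 ± 2.501 CPM in untreated leaves. CML24, the sensor with the highest FPKM in untreated leaf, had 28.2, 22.2 and 50.0 CPM in treated leaves, against 41.5, 43.8 and 43.9 CPM in untreated leaves. Treated replicate 3 stood apart, and without it this gene (CqNL-6_011515) had a log2 fold change of -0.79 (edgeR adjusted p = 0.00299), against -0.36 ± 0.25 with all libraries (edgeR adjusted p = 0.263). The other copy (CqNL-6_008767) had -1.40 without that replicate (edgeR adjusted p = 0.0198), against -0.43 ± 0.53 with all libraries (edgeR adjusted p = 0.527). The leading stamen kinases were almost absent from leaves in either state, with 10 reads over the treated and 20 over the untreated libraries for CDPK17 (CqNL-6_015231), and 2 and 1 for CDPK24 (CqNL-6_037449).

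The other genes of calcium signalling were counted from title lists in the same fits, to be read against the 24.0% of all genes that rose, the 22.8% that fell and the 20.0% that were highest in stamen. Of 25 tested channel genes (cyclic nucleotide-gated channels, glutamate receptors, CSC1-like proteins and annexins), 15 rose after NaCl and 0 fell, and 8 of 29 (27.6%) were highest in stamen. Of 7 tested pumps and exchangers, 4 rose and 1 fell, and 2 of 9 (22.2%) were highest in stamen. Of 16 tested calmodulin-binding factors and scaffolds, 5 rose (31.2%) and 1 fell, and 5 of 20 (25.0%) were highest in stamen. Other titles with calmodulin or calcium binding had 9 rises (40.9%) and 1 fall of 22, and 9 of 24 (37.5%) highest in stamen. Among 7 tested targets and partners of CIPKs and CDPKs (respiratory burst oxidases, sodium/hydrogen exchangers, AKT1 potassium channels and the anion channel SLAC1), 4 rose and 0 fell, and 3 of 9 (33.3%) were highest in stamen. The lists of calmodulin-binding factors and of other titles share 5 genes.

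A few of these genes are named with values chosen after they were seen, and they do not stand for their families. The list of targets and partners held 13 genes, of which 7 were tested for salt and 4 rose. The AKT1-like potassium channel CqNL-6_027309, of the channel family that CIPK23 activates in Arabidopsis, averaged 10.2 CPM in NaCl-treated and 3.24 CPM in untreated leaves (log2 fold change 1.66), and 170 CPM in stamen against 4.53 CPM in pistil. The respiratory burst oxidase homolog E gene (CqNL-6_030430), of a family that CDPKs phosphorylate in Arabidopsis, averaged 13.7 CPM in treated and 3.29 CPM in untreated leaves. A gene titled sodium/hydrogen exchanger 6-like (CqNL-6_029012) averaged 35.6 CPM in treated and 9.48 CPM in untreated leaves. No title in the list of targets and partners named SOS1. Calmodulin itself was highest in stamen in 4 genes, with 899 to 1541 CPM there.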

How the data were processed

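Paired-end RNA sequencing covered 15 libraries (5 groups of 3 replicates). Per the paper's methods and the labels, the authors mapped filtered reads to the NL-6 assembly by HISAT2 (version 2.1.0 according to the processing notes of the submitters) and used HTSeq for whole read counts per gene, deposited without normalization. Neither its strand setting nor its handling of multiply mapped reads is stated in what was read here. The authors also deposited FPKM, made by dividing these counts by gene length and library total, and these served to compare genes. Group and replicate came from the sample labels, and all libraries were used.

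The members and gene lists were chosen with earlier results of these data known. Counts were scaled by TMM, filtered with filterByExpr and tested with edgeR 4.0.16 (quasi-likelihood, Benjamini-Hochberg adjustment over all genes tested; limma 3.58.1, R 4.3.3), with the 6 leaf libraries for salt and the 12 untreated libraries for the tissues. SE is the log2 fold change divided by the square root of F. Scripts were tested on simulated data. Named for salt were up to 5 members per class with the largest rise or fall among those that passed with a mean of at least 2 CPM in either leaf group. For each tissue they were up to 3 per class with the largest smallest fold change, then the leading FPKM gene per class and group, genes with 0 reads, and up to 4 whose direction turned with the total library size; other genes were named as copies of these or after their values were seen. Copy ratios used log2(CPM + 0.1). Alternatives were the Wald test and the size factors of DESeq2 1.42.0, the total library size, upper quartile scaling, a replicate block, all 15 libraries, no read filter, each replicate left out, and other fold and read minimums. Counting depth was 12499775 to 17019602 reads per library, and limits from 0 reads (3 counts) cover counting error only. Replicates differed by more than the sampling noise (chi-square per gene 3.97 to 21.9). Tables and figures used Python 3.11.15, pandas 2.3.3, numpy 2.4.6, scipy 1.17.1 and matplotlib 3.10.9. No sequences are printed.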

Additional observations from a re-analysis of the deposited data

How the results depend on the processing

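The direction of the 15 salt results for members named by rule did not turn under any of 13 alternatives, and 11 of them kept their side of the threshold throughout; 14 of 195 values no longer passed, those of CBL1 (CqNL-6_021436), CML35 (CqNL-6_015938), CDPK26 (CqNL-6_030965) and CDPK1 (CqNL-6_050741). Of the 15 tissue results, 13 kept their direction and an adjusted p under 0.05, and 12 also kept the fold minimum of the call in every alternative. With the total library size, the log2 fold change of stamen over root turned for CBL1 (CqNL-6_004854, -0.52) and CIPK24 (CqNL-6_044778, -0.41). That scaling moves the median of all genes to 0.29 for salt and to -2.02 for stamen over pistil, against 0.04 and -0.19 with TMM. With it, 2 members fell after NaCl (1 sensor and 1 kinase) and 20 rose (10 kinases), where 15.2% of all genes fell and 35.8% rose; 5 members were highest in root (2 kinases), 4 kinases in stamen, and 2 members in pistil (1 sensor and 1 kinase). With TMM and a log2 fold change of at least 1 for salt, 7 members rose (3 sensors), where the background was 10.5%. On the same terms 3 members fell (2 sensors and 1 kinase), where the background was 10.6%. With no fold minimum, 7 members were highest in root, 5 of them kinases, and with a minimum of 2 no kinase was (0). No share of all genes is given here for these minimums.

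When 1 library was left out, 10 to 15 members rose and 2 to 6 fell after NaCl (sensors 4 to 8 and 1 to 3, kinases 5 to 7 and 1 to 3). Of all genes tested, 18.2% to 22.6% rose and 17.9% to 22.6% fell in these fits. In the tissue fits, 20 to 23 members were highest in stamen (sensors 14 to 15, kinases 6 to 8), and no share of all genes is given here for these counts. Replicate numbers did not pair the samples: the correlation of deviations of same-numbered leaf libraries was -0.164, 0.038 and -0.035. With the replicate block, 12 members rose and 4 fell, where 21.8% of all genes rose and 21.0% fell. In that fit CBL1 (CqNL-6_021436, log2 fold change 0.485, edgeR adjusted p = 0.0637) and CML13 (CqNL-6_026264, edgeR adjusted p = 0.0631) no longer passed. Depth limits the members with few leaf reads, and 18 of 53 were not tested for salt.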
